A study of Mus musculus with 17 samples.

Results

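The 9 control MC38 tumors of the series, out of 17 tumors in all, are described here on their own, each by its RNA-seq read counts over 21931 protein-coding genes. They were taken as the samples whose deposited labels give the treatment as Control, and the number of each tumor below is the replicate number of its label. The study's text gives the sizes of the control and cryoablation groups the other way round from the labels, and the labels were followed. MC38 is a colon cancer cell line of C57BL/6 mice that grows in mice with an intact immune system. According to the labels, C57BL/6J mice aged 6 to 8 weeks received MC38 cells under the skin of both sides, the genotype was WT, and the tumors were about 5 to 6 mm across on day 7. The control tumors carry the label Day 5, the time counted from the ablation given to the other group, and the labels do not say whether control mice were anesthetized or had a sham procedure. Both sides of a mouse were injected, and the labels do not name the mouse of a tumor, so 2 control tumors from 1 mouse cannot be told from tumors of separate mice. The tests below measure the spread between these 9 samples.

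A tumor grown from a cell line under the skin is a mixture. The cancer cells divide and carry the line's identity, fibroblasts lay down collagen, endothelial cells and pericytes form vessels, and macrophages, neutrophils, dendritic cells and T cells enter from the blood. T cells recognize peptides on MHC class I or class II molecules, and interferon from T cells and other cells switches on a shared set of target genes in the cells around them. MC38 is widely used for its response to immune checkpoint blockade. In bulk RNA, fewer cells of a type and less RNA per cell cannot be told apart.

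The interferon target genes varied together from tumor to tumor, and the bases upstream of several of them are shown first. The interferon-stimulated response element was searched on both strands as GAAA, any 2 bases and GAAA again, where overlapping matches count once, in the RefSeq promoter table (build GRCm38.p6), which covers 250 bases before to 50 bases after a start site. Of the 34 genes of the interferon response list, 25 had a promoter there, and 16 of these 25 (64.0%) held the letters, against 3.99% of all 27025 genes with a promoter. A stretch of 100 bases is shown for 4 of them because their transcripts are described below and each carries the element upstream of the start site. Each stretch runs 5′ to 3′ along the gene's strand and the element is in capitals.
Ifit1 (chr19:34640740-34640839, plus strand, elements from base -104 and base -85): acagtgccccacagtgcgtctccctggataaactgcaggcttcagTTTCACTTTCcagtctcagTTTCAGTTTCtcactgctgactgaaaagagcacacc
Rsad2 (chr12:26456518-26456617, minus strand, element from base -120): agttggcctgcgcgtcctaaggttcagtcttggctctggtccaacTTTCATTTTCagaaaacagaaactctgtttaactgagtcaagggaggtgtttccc
Oas3 (chr5:120777680-120777779, minus strand, element from base -75): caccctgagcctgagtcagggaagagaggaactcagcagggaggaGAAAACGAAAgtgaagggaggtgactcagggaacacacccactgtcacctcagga
Gbp2 (chr3:142620559-142620658, plus strand, element from base -59): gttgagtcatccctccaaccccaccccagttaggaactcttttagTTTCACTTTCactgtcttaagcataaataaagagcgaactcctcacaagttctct

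A match is a description of the letters and not a bound site. In the same table the cell-cycle element TTTGAA was present in 14 of 22 promoters of the proliferation list (63.6%) and in 20.2% of all genes. The letters CC, any 6 bases and GG, which include the CArG box of smooth muscle genes, were present in 10 of 10 promoters of the pericyte and smooth muscle list and in 75.1% of all genes.

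The tumors were sequenced to a similar depth, with total counts from 14154687 to 17898672 and a median of 16048176, and between 15054 and 15703 genes had at least 1 count in a tumor. A count of 3, used as the limit of detection, was 0.168 to 0.212 CPM, the count scaled to the library total. Control tumors 1 and 5 stood apart from the other 7. The 84 ribosomal protein genes took 11.4% and 12% of their counts, against 5.51% to 7.69% in the others. Long genes were also lower in tumors 1 and 5, by 0.179 and 0.213 on the log2 scale per doubling of gene length, whereas this slope lay between -0.032 and 0.146 in the other 7. The part of these differences in the results below was not tested. Values without tumors 1 and 5 are given where a call named below between gene lists was lost or a count moved by more than 1.5 times. Control tumor 4 stood at the other end of the leading principal component, at 22.9 against -17.8 for tumor 1. That component held 54.0% of the variance of the 500 most variable genes and the second held 23.0%.

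The most abundant transcripts belonged to the mitochondrion, to translation, to MHC class I and to the macrophage. FPKM, the count scaled to the length of the gene and the total of the library, sets genes of different length on 1 scale. By mean FPKM, mt-Co1 of the respiratory chain was highest at 4945 ± 650 (SD, n = 9), followed by the elongation factor Eef1a1 at 4201 ± 467. B2m, the light chain of MHC class I, was next at 3985 ± 641. Rplp1 of the ribosome stalk followed at 2941 ± 1261, with its 2 highest values in tumors 5 and 1, and Lgals1, a galectin of mesenchymal cells, reached 2424 ± 951 with the same 2 tumors on top. The MHC class I heavy chains H2-D1 and H2-K1 had 1383 ± 180 and 1241 ± 181 FPKM. Lyz2, the lysozyme of macrophages and other myeloid cells, had 1475 ± 340 FPKM and ranked 14 among all genes. The remaining genes of the top 20 were 8 more ribosomal protein genes (Rps3a1, Rplp0, Rps15, Rps2, Rpl8, Rpl19, Rps4x and Rpl4), mt-Nd1, mt-Cytb, the chaperone Hsp90ab1 and Tpt1.

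**Figure D1:**
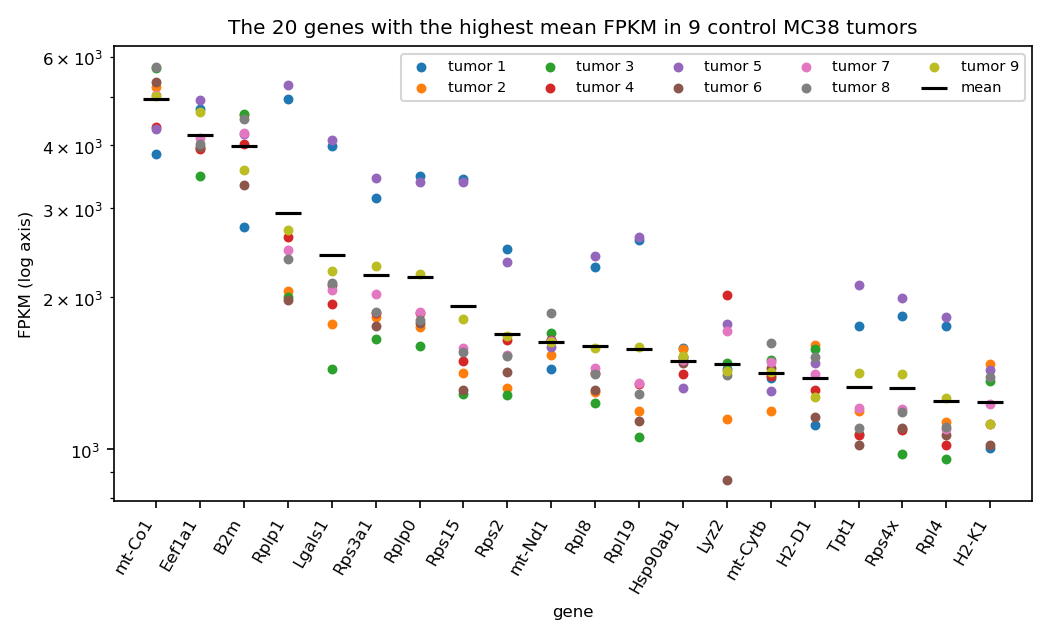
FPKM on a log axis of the 20 genes with the highest mean, where each point is 1 of the 9 control tumors and the black bar is the mean. The ribosomal protein genes and Lgals1 are highest in tumors 1 and 5 (Rplp1 4955 and 5265), while Lyz2 runs from 869 in tumor 6 to 2021 in tumor 4.

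These 20 genes held 6.37 ± 0.785% of all counts (SD, n = 9), from 5.61% to 7.96%. In all, 27 genes had a mean of at least 1000 FPKM, 416 of at least 100, 5029 of at least 10 and 11223 of at least 1. At the other end, 4531 genes had no count in any of the 9 tumors, and 13744 were counted in each of them. Not all genes of the mitochondrial genome were high in the table. mt-Co2 had a median of 24.8 FPKM, mt-Co3 of 11.1, mt-Atp6 of 5.76 and mt-Atp8 of 0, although they are made from the same long transcripts as mt-Co1. How the authors assigned reads that fit more than 1 place is not given in the sources used here, so levels of genes with near-identical copies (mitochondrial genes, ribosomal protein genes, granzymes, the hemoglobins, Ifit3 and Ifit3b, the Ly6 family) are uncertain. Gapdh, with 72.2 ± 12.2 FPKM, is another gene with many copies.

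Genes of the mesenchymal list had levels far above those of the simple epithelium and intestinal lists. Which cells of the mixture made them was not tested. Of the 16 genes of the mesenchymal list, all passed the filter of a mean of 10 counts, and their median level was 30.3 FPKM. The intermediate filament vimentin (Vim) had a lowest value of 904 FPKM, a median of 938 and a highest of 1237. The matrix protein Sparc had 642 ± 70.8 FPKM (SD, n = 9). Across the 16 genes of the simple epithelium list the median level was 0.279 FPKM, and 6 passed the filter. Krt14 and Itgb4, epithelial genes outside that list whose levels are given below, had means above the mesenchymal median. The keratin Krt8 ran from 0 in tumors 4 and 6 to 10.9 FPKM in tumor 7, with a median of 1.47. Its filament partner Krt18 ran from 0.0389 to 11.3 FPKM with a median of 1.15. Vim exceeded Krt8 in 9 of 9 tumors, by 9.82 ± 2.52 on the log2(FPKM + 0.1) scale (adjusted p = 0.00460, two-sided exact sign-flip permutation test), where 0.00391 is the smallest unadjusted p that 9 tumors can give. Krt8 and Krt18 differed by -0.06 ± 0.516 on that scale (adjusted p = 0.715, same exact test), and Krt8 was the higher in 4 of 9 tumors.

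Other pairs of identity genes gave a mixed picture. Zeb1, a repressor of epithelial genes, exceeded the epithelial adhesion molecule Epcam in 9 of 9 tumors, by 3.17 ± 1.12 on the log2(FPKM + 0.1) scale (adjusted p = 0.00460, exact permutation test). N-cadherin (Cdh2), in contrast, was lower than E-cadherin (Cdh1) in 8 of 9 tumors, at 2.34 ± 0.340 against 3.82 ± 1.59 FPKM (adjusted p = 0.0304, exact permutation test). The Cdh1 call was lost when any of tumors 3, 4, 7, 8 or 9 was left out. Cdh1 was highest in tumor 4, at 5.98 FPKM, where Krt8 was 0.

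Markers of the intestine were at or near the limit of detection. Of the 19 genes of the intestinal list, 9 had at most 3 counts in every tumor, namely Cdx2, Olfm4, Tff3, Hnf4a, Gpa33, Fabp1, Car1, Slc26a3 and Phgr1. Cdx2 and Hnf4a encode transcription factors of the gut epithelium, and Fabp1 and Car1 proteins of its mature absorptive cells. The most abundant member was the galectin Lgals4, with 4.77 ± 0.636 FPKM (SD, n = 9). The stem cell factor Ascl2 had 0.408 ± 0.301 FPKM (SD, n = 9). The labels give the cell type as mouse colon cancer cells and also call the cultured cells mesenchymal. The 4 Y-linked genes of the table (Ddx3y, Eif2s3y, Kdm5d and Uty) had 0 counts in all 9 tumors.

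Transcripts of dividing cells and of glycolysis were abundant, and the mean levels of both lists had a narrow range. All 26 genes of the proliferation list passed the filter, led by the replication clamp Pcna (185 ± 13.6 FPKM), the mitotic activator Cdc20 (106 ± 18.3) and the topoisomerase Top2a (82.9 ± 10.8). Each list was given a score per tumor, the log2 CPM averaged over those of its genes that passed the filter. The proliferation score ran from 6.78 in tumor 3 to 7.38 in tumor 6, with a median of 7.25, which is a 1.52-fold range, and tumor 3 lay apart below the rest. In the glycolysis and hypoxia list, the enolase Eno1 had 647 ± 176 FPKM, Pgk1 had 564 ± 80.4 and the lactate dehydrogenase Ldha had 549 ± 77.9. Its score ranged 1.53-fold and was highest in tumor 5. The mesenchymal score ranged 1.20-fold, no more than the 1.20-fold range of the 12 reference genes.

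Transcripts of skeletal muscle and fat were high in some of the tumors, and where they came from was not tested. The skeletal muscle score was 3.96 in tumor 6 and 3.39 in tumor 3, against a median of -0.53, a 25.5-fold range. The muscle actin Acta1 had 30.1 FPKM in tumor 6, 24.6 in tumor 3 and 3.92 in tumor 8, and at most 0.325 in the other 6. The fast myosin Myh4 had 8.51, 4.23 and 0.580 FPKM in the same 3 tumors and at most 0.0104 elsewhere. Tnnc2 of the same tissue had at most 3 counts in every tumor, and 74.0% of its exon bases lie in exons of Ube2c in the GENCODE M21 annotation. Adipocyte genes were highest in tumors 7 and 3, where the hormone Adipoq reached 6.17 and 3.52 FPKM against a median of 1.26, and the adipsin Cfd 65.4 and 35.4 against a median of 11.9.

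Of the epidermal list, 7 of 20 genes had at most 3 counts in every tumor (Krt1, Dsg1a, Dsg3, Lor, Flg, Ivl and Krtdap). The basal keratin Krt14, however, had 166 ± 43.6 FPKM (SD, n = 9) and at least 107 in each tumor, while its filament partner Krt5 had a median of 0.154 and a highest value of 1.36 FPKM in tumor 7. The simple epithelium score was highest in tumors 7 and 9 and lowest in tumors 6 and 3, a 24.2-fold range. It was the only one of 84 pairs of a core list with a tissue or technical measure that passed the threshold, with the epidermal score (r = 0.92, p = 0.000452, adjusted p = 0.0380; rho = 0.87, p = 0.00451, two-sided exact permutation tests over 9 tumors), and r was 0.84 without the 2 tumors farthest from the median epithelial score. That call was lost when any single tumor was left out, and without tumors 1 and 5 together (r = 0.94). Red cell transcripts were also uneven, with Hbb-bs from 3.96 FPKM in tumor 6 to 55.2 in tumor 5 and a median of 10.5.

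**Figure D2:**
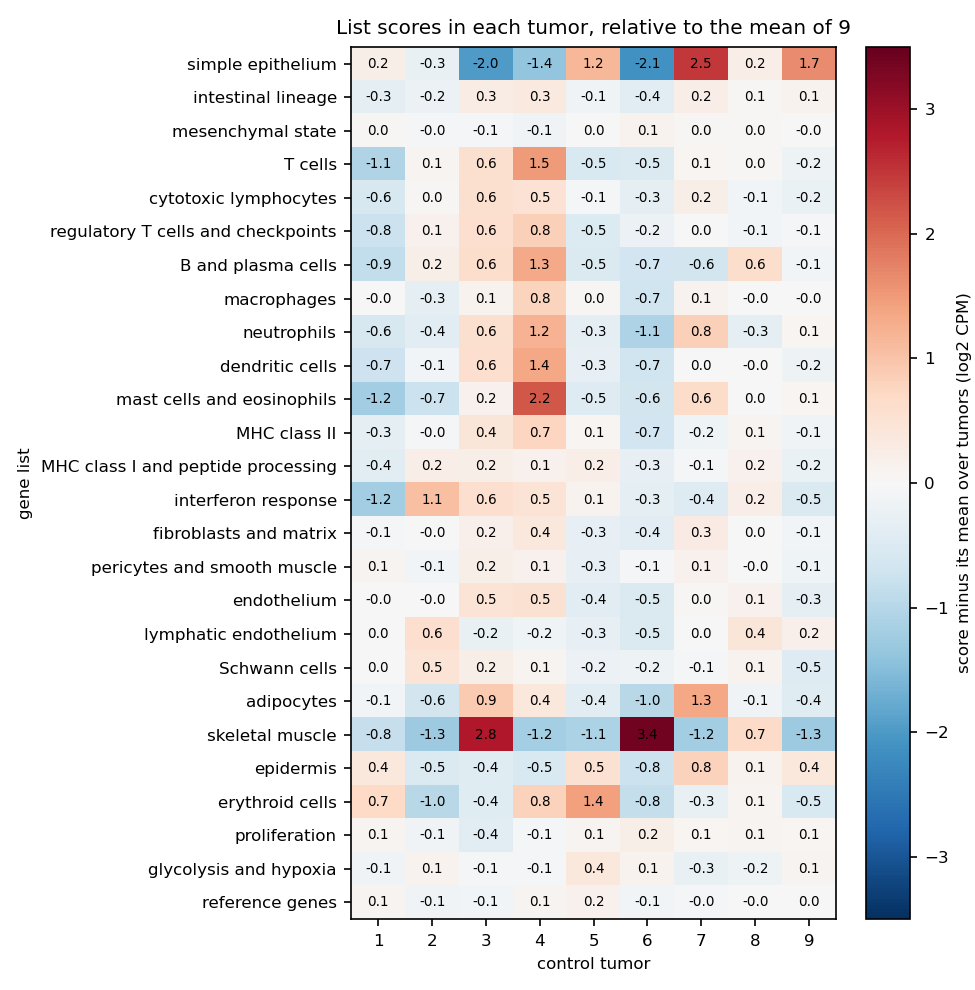
Score of each gene list in each control tumor minus its mean over the 9 tumors, in log2 CPM, with red above and blue below the mean. The muscle list stands out in tumors 3 and 6, the epithelial list in tumors 7 and 9, most immune lists in tumor 4, and the interferon list in tumor 2.

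Among the lists of immune cell types, macrophages had the highest median level. All 20 genes of the macrophage list passed the filter, and their median level was 27.2 FPKM, against 2.11 for the 17 T cell genes in the table, 1.85 for neutrophils and 1.55 for dendritic cells. The lists of MHC class II and class I genes, which are not markers of 1 cell type, had higher medians, at 35.6 and 81.0 FPKM. After Lyz2, the lipid carrier Apoe had 530 ± 172 FPKM and the complement component C1qa had 418 ± 125 (SD, n = 9). The macrophage surface marker Adgre1 exceeded the T cell receptor chain Cd3e in 9 of 9 tumors, by 4.82 ± 0.412 on the log2(FPKM + 0.1) scale (adjusted p = 0.00460, exact permutation test). Csf1r, the receptor for macrophage growth factor, exceeded the neutrophil receptor Csf3r in 9 of 9 tumors, by 3.20 ± 0.723 (adjusted p = 0.00460, same exact test).

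Arginase (Arg1), which depletes arginine and is often used as a marker of alternatively activated macrophages, was far above the nitric oxide synthase Nos2 of classically activated ones. Arg1 had a lowest value of 123 FPKM, a median of 258 and a highest of 502, and Nos2 had 1.17, 11.9 and 38.1. The groups of 9 values did not overlap, and Arg1 was the higher by 4.44 ± 1.04 on the log2 scale (adjusted p = 0.00460, exact permutation test). The mannose receptor Mrc1 (29.0 ± 15.1 FPKM) exceeded the scavenger receptor Cd163 (3.42 ± 5.63) in each tumor, by 3.84 ± 0.912 (adjusted p = 0.00460, exact permutation test). Cd163 varied most among the macrophage genes. It was 18.1 FPKM in tumor 4 and 4.13 in tumor 7, and lay between 0.476 and 2.66 in the other 7. Ly6c2 of inflammatory monocytes had 8.41 ± 10.6 FPKM, whereas Ly6g of neutrophils had at most 2 counts in any tumor. Neutrophil transcripts were led by Mmp9 (14.8 ± 5.10 FPKM), S100a9 (5.92 ± 4.95) and Retnlg (5.19 ± 5.55).

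T cell transcripts were low and uneven. The adhesion molecule Cd2 had 4.97 ± 3.76 FPKM, the kinase Lck 4.91 ± 3.0 and the receptor chain Cd3d 3.81 ± 2.48 (SD, n = 9). Cd8a of killer T cells exceeded Cd4 of helper T cells in 7 of 9 tumors, at 2.79 ± 1.5 against 1.87 ± 1.39 FPKM (adjusted p = 0.0411, exact permutation test), and that call was lost when any of tumors 2, 3, 6, 7 or 8 was left out. Cd8a exceeded the regulatory T cell factor Foxp3 (0.396 ± 0.213 FPKM) in 9 of 9 tumors, by 2.41 ± 0.781 on the log2 scale (adjusted p = 0.00460, exact permutation test). The genes Trac, Trbc1 and Trbc2 are not among the symbols of the table.

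The granzymes, proteases of killer cells, had higher levels than the T cell genes. Gzmd had 150 ± 56.7 FPKM, Gzmc 138 ± 35.4 and Gzmf 80.8 ± 34.6, and Gzmb, the main granzyme of cytotoxic T cells, had 52.1 ± 18.4. Gzmb exceeded perforin (Prf1, 18.6 ± 7.89 FPKM) in 9 of 9 tumors, by 1.51 ± 0.396 on the log2 scale (adjusted p = 0.00460, exact permutation test). Tumor 4, which had the highest T cell transcripts, had the lowest Gzmc, Gzmd, Gzme and Gzmf, at 63.3, 56.7, 18.3 and 28.6 FPKM. In the same tumor Gzma was highest, at 48.0 FPKM against a range of 7.03 to 24.3 in the others.

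Of the checkpoint genes, the costimulator Tnfrsf9 was highest at 19.0 ± 5.31 FPKM, before Havcr2 at 7.27 ± 2.34 and Tnfrsf4 at 4.74 ± 2.21. The inhibitory receptor Lag3 (4.55 ± 0.739) exceeded Ctla4 (1.91 ± 1.36) in 9 of 9 tumors, by 1.49 ± 0.808 on the log2 scale (adjusted p = 0.00460, exact permutation test). The ligand Cd274, which encodes PD-L1, exceeded its receptor Pdcd1, which encodes PD-1, in 9 of 9 tumors (15.9 ± 9.59 against 2.78 ± 0.980 FPKM, adjusted p = 0.00460, exact permutation test). Cd274 was lowest in tumor 1, at 2.44 FPKM, and highest in tumor 3, at 33.5, with a median of 12.9. Tgfb1 exceeded Tgfb2 in 9 of 9 tumors, at 22.4 ± 3.0 against 0.663 ± 0.164 FPKM (adjusted p = 0.00460, exact permutation test). B and plasma cell transcripts were near the limit except for the joining chain Jchain, which ran from 0.223 FPKM in tumor 1 to 22.3 in tumor 4 with a median of 3.84. The immunoglobulin genes Ighm and Igkc are not among the symbols of the table. The mast cell proteases Mcpt4, Cma1 and Tpsb2 had means of 3.10, 2.88 and 2.77 FPKM and were highest in tumor 4, at 11.3, 11 and 8.64.

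Antigen presentation was present in both classes. H2-K1 of class I exceeded H2-Ab1 of class II (172 ± 65.3 FPKM) in 9 of 9 tumors, by 2.92 ± 0.496 on the log2 scale (adjusted p = 0.00460, exact permutation test). Cd74, the invariant chain of class II, had 513 ± 148 FPKM and H2-Eb1 227 ± 68.2 (SD, n = 9). The score of the class I list ranged 1.51-fold, and that of the class II list ranged 2.67-fold, lowest in tumor 6 and highest in tumor 4.

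Interferon target genes were high in level and varied together. Gbp2, a guanylate-binding protein, had 349 ± 122 FPKM, the viral tether Bst2 264 ± 88.7 and the T cell attractant Cxcl9 126 ± 61.9 (SD, n = 9). Cxcl9 exceeded Cxcl10 (94.2 ± 46.3) in 9 of 9 tumors, by 0.46 ± 0.314 on the log2 scale (adjusted p = 0.00460, exact permutation test). Of the 4 genes whose upstream bases are shown above, Ifit1 ran from 6.59 FPKM in tumor 1 through a median of 18.6 to 46.0 in tumor 2. Rsad2 ran from 1.36 through 5.07 to 16.6, Oas3 from 0.793 through 4.56 to 12.2, and Gbp2 from 138 through 323 to 529 FPKM. Tumor 1 was lowest for all 4, and tumor 2 was highest for the first 3 and level with tumor 3 for Gbp2. The interferon score ran from 4.87 in tumor 1 to 7.15 in tumor 2, a 4.87-fold range, and its second highest value, 6.69 in tumor 3, was 3.55-fold above the lowest.

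Collagen transcripts were abundant, and the stromal scores had a narrow range. Col3a1 had 592 ± 75.4 FPKM, Col6a1 299 ± 50.7 and Col1a1 184 ± 116 (SD, n = 9). Col3a1 exceeded Col1a1 in 9 of 9 tumors, by 1.87 ± 0.699 on the log2 scale (adjusted p = 0.00460, exact permutation test). Col1a1 was 463 FPKM in tumor 4 and 89.5 to 240 in the others. The pericyte receptor Pdgfrb (28.4 ± 4.99 FPKM) exceeded the fibroblast receptor Pdgfra (6.21 ± 1.78) in 9 of 9 tumors, by 2.21 ± 0.501 (adjusted p = 0.00460, exact permutation test). Acta2 of smooth muscle had 22.8 ± 5.69 FPKM, while Tagln, usually found with it, had at most 3 counts in every tumor, although 5.43% of its exon bases lie in exons of Pcsk7 in GENCODE M21.

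The highest means of the endothelial list were those of Cd34 (126 ± 10.7 FPKM), Plvap (29.3 ± 8.26) and Eng (9.51 ± 2.51). Which cells made them was not tested. Pecam1 of endothelium (9.15 ± 3.57 FPKM) exceeded Ptprc, the pan-leukocyte marker CD45 (5.24 ± 3.17), in 9 of 9 tumors, by 0.93 ± 0.410 on the log2 scale (adjusted p = 0.00460, exact permutation test). Pdpn was the one abundant gene of the lymphatic list, with 80.1 ± 9.22 FPKM, and Lyve1 (1.71 ± 1.04) and Flt4 (0.307 ± 0.0995) were low. Of the Schwann cell list Pmp22 (91.6 ± 10.5) was high and Ngfr (8.32 ± 2.61) and Cdh19 (2.50 ± 0.739) were lower. Scores of the fibroblast, pericyte and endothelial lists ranged 1.68-fold, 1.41-fold and 2.07-fold between tumors, less than those of T cells (5.86-fold), neutrophils (4.91-fold), dendritic cells (4.23-fold) and mast cells and eosinophils (10.4-fold). Macrophages (2.79-fold) and cytotoxic lymphocytes (2.17-fold) lay closer to the endothelial range.

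Nearly all expressed genes varied between the tumors by more than read sampling. Of 13142 genes with a mean of at least 10 counts, 12490 (95%) passed the Poisson dispersion test at a Benjamini-Hochberg adjusted p under 0.05. The size of the variation is the biological coefficient of variation (BCV), the relative spread of a gene between tumors after removal of read sampling, as edgeR estimates it. Its median was 0.197, with quartiles of 0.150 and 0.284. A BCV of at least 0.2 was reached by 48.9% of genes and of at least 0.5 by 696 genes (5.30%). By construction 50% of genes exceed the median. All 17 T cell genes, all 20 cytotoxic, all 20 macrophage and all 34 interferon genes exceeded it, whereas 4 of 26 proliferation genes, 6 of 16 mesenchymal genes and 5 of 12 reference genes did. BCV was larger for genes of low count, with a median of 0.361 for means of 10 to 100 counts, 0.187 for 100 to 1000 and 0.159 above. Set against the median of its own count class, the BCV was larger for all 17 T cell, all 20 macrophage and all 34 interferon genes and for 18 of 20 cytotoxic genes. By that measure 16 of 26 proliferation, 10 of 16 mesenchymal and 8 of 12 reference genes were above as well, and the median BCV of the proliferation list was 0.166. Also above were 18 of 22 glycolysis and hypoxia, all 13 MHC class I, 18 of 22 fibroblast, 12 of 13 pericyte and 15 of 18 endothelial genes.

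Genes of skeletal muscle were the most frequent among those of largest BCV. Among genes with a mean of at least 20 counts, the muscle genes Myh4 (2.43), Ckm (2.05), Myl1 (1.86), Acta1 (1.69), Actn3 (1.30), Atp2a1 (1.29) and Myh1 (1.22) made up 7 of the 15 highest. The collagen Col6a5 (1.70) had 5.08 FPKM in tumor 4 and at most 0.437 in any other. The B cell attractant Cxcl13 (1.66) had 7.98 FPKM in tumor 4, 1.91 in tumor 8 and 1.75 in tumor 3, and was 0 in tumors 1, 2 and 7. The keratins Krt8 (1.47) and Krt18 (1.28), the prolactin receptor Prlr (1.19), the ribonuclease Rnase2a (1.28), the scavenger receptor Marco (1.27) and Colq (1.26) completed the 15.

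Many, but not all, of the immune lists rose and fell together across the 9 tumors. Of 91 pairs of the 14 core list scores, 27 correlated at an adjusted p under 0.05, and 25 of these were positive. T cells went with the regulatory T cell and checkpoint list (r = 0.96, p = 1.38e-05, adjusted p = 0.00125; rho = 0.98, p = 4.96e-05, two-sided exact permutation tests over all pairings of 9 tumors). They also went with dendritic cells (r = 0.97, p = 3.58e-05, adjusted p = 0.00163; rho = 0.93, p = 0.00075, same exact tests). Without the 2 tumors farthest from the median T cell score, r was 0.94 and 0.92. The checkpoint list holds genes of T cells, such as Foxp3, so its pair with T cells does not compare separate cell types. Dendritic cells went with MHC class II (r = 0.93, p = 0.000482, adjusted p = 0.0146; rho = 0.77, p = 0.0214, exact permutation), with r = 0.79 without the 2 farthest tumors. Macrophages went with neutrophils (r = 0.86, p = 0.0019, adjusted p = 0.0175; rho = 0.82, p = 0.0108, exact permutation), with r = 0.59 without the 2 farthest tumors. They did not pass with T cells (r = 0.67, adjusted p = 0.112, exact permutation) or cytotoxic lymphocytes (r = 0.60, adjusted p = 0.154). The checkpoint list did not pass with macrophages (r = 0.52, adjusted p = 0.224, exact permutation), neutrophils (adjusted p = 0.0593) or MHC class II (adjusted p = 0.0551).

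Of the 3 pairs among the stromal lists, 2 passed, and some stromal lists went with immune lists. Fibroblasts went with endothelium (r = 0.88, p = 0.00278, adjusted p = 0.023; rho = 0.93, p = 0.00075, exact permutation) and with neutrophils (r = 0.90, p = 0.00106, adjusted p = 0.0157; rho = 0.75, p = 0.0255, exact permutation), with r of 0.74 without the 2 tumors farthest in the fibroblast score and 0.76 without the 2 farthest in the neutrophil score. Pericytes went with endothelium (r = 0.80, p = 0.0114, adjusted p = 0.0448; rho = 0.78, p = 0.0172, exact permutation), with r = 0.70 without the 2 tumors farthest in the pericyte score. Pericytes with fibroblasts did not pass (r = 0.78, p = 0.0156, adjusted p = 0.0506; rho = 0.77, p = 0.0214, exact permutation). The genes of the pericyte list did not move as 1 group, since the median correlation between 2 of them was 0.02. In tumor 4 the pericyte genes Pdgfrb and Cspg4 were lowest of the 9, while the pericyte score was 3.71 against a median of 3.56. The 2 negative pairs were cytotoxic lymphocytes with proliferation (r = -0.77, p = 0.00938, adjusted p = 0.0406; rho = -0.88, p = 0.00308, exact permutation) and pericytes with glycolysis (r = -0.86, p = 0.00384, adjusted p = 0.0291; rho = -0.75, p = 0.0255, exact permutation). Without the 2 farthest tumors these were -0.49 and -0.82. No pair with the interferon list passed, and r was 0.65 with T cells (p = 0.0569, adjusted p = 0.115; rho = 0.73, p = 0.0311, exact permutation). It was 0.14 with macrophages (p = 0.751, adjusted p = 0.785; rho = 0.17, p = 0.678, exact permutation).

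The number of calls changed with the tumors left in. All 27 pairs kept their sign without any 1 tumor, but 3 stayed past the threshold whichever tumor was left out, namely T cells with dendritic cells, T cells with the checkpoint list, and cytotoxic lymphocytes with dendritic cells. Without tumor 4 there were 3 calls in all, without tumor 3 there were 10, without tumor 8 or 9 there were 12, and without tumor 6 or 5 there were 13 and 15. A lost call was not always a lost correlation. Without tumor 4 the 27 pairs had r between 0.54 and 0.96 in size, with the lowest for macrophages with dendritic cells, and r was closer to 0 than without any other tumor in 20 of them. Without the 2 tumors farthest from the median of the first score, 8 of the 27 pairs had r under 0.6 in size. Among these, macrophages had r = 0.23 with MHC class II, 0.25 with dendritic cells and 0.27 with fibroblasts. Without tumors 1 and 5 together there were 16 calls. Among the pairs named above, the calls of fibroblasts with endothelium (r = 0.86) and of pericytes with endothelium (r = 0.80) were lost. So were those of cytotoxic lymphocytes with proliferation (r = -0.83) and pericytes with glycolysis (r = -0.75), and calls of pairs not named above. With Spearman's rho 9 pairs passed.

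**Figure D3:**
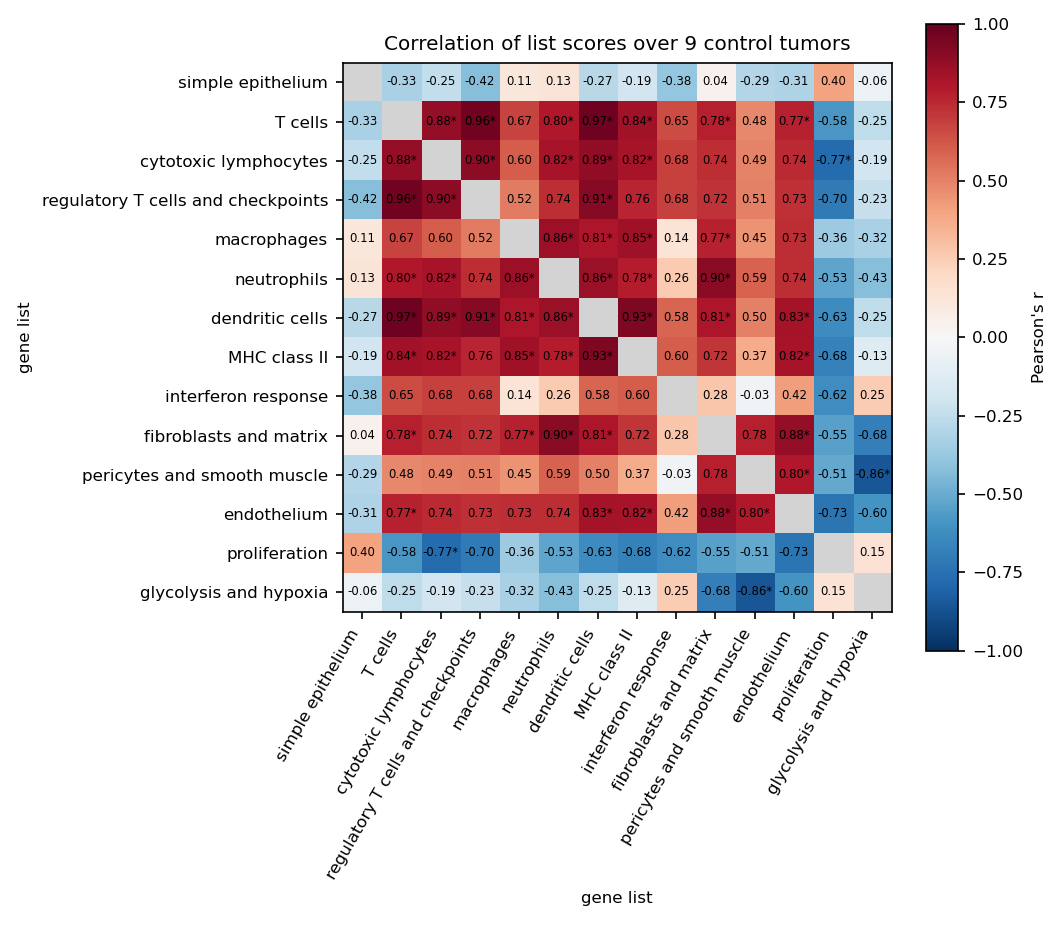
Pearson's r between the scores of the 14 core lists over the 9 control tumors, where an asterisk marks an adjusted p under 0.05 (exact permutation test, 91 pairs). The immune and stromal lists form a block of positive values from T cells to endothelium, apart from interferon, and proliferation and glycolysis are negative against most of it.

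**Figure D4:**
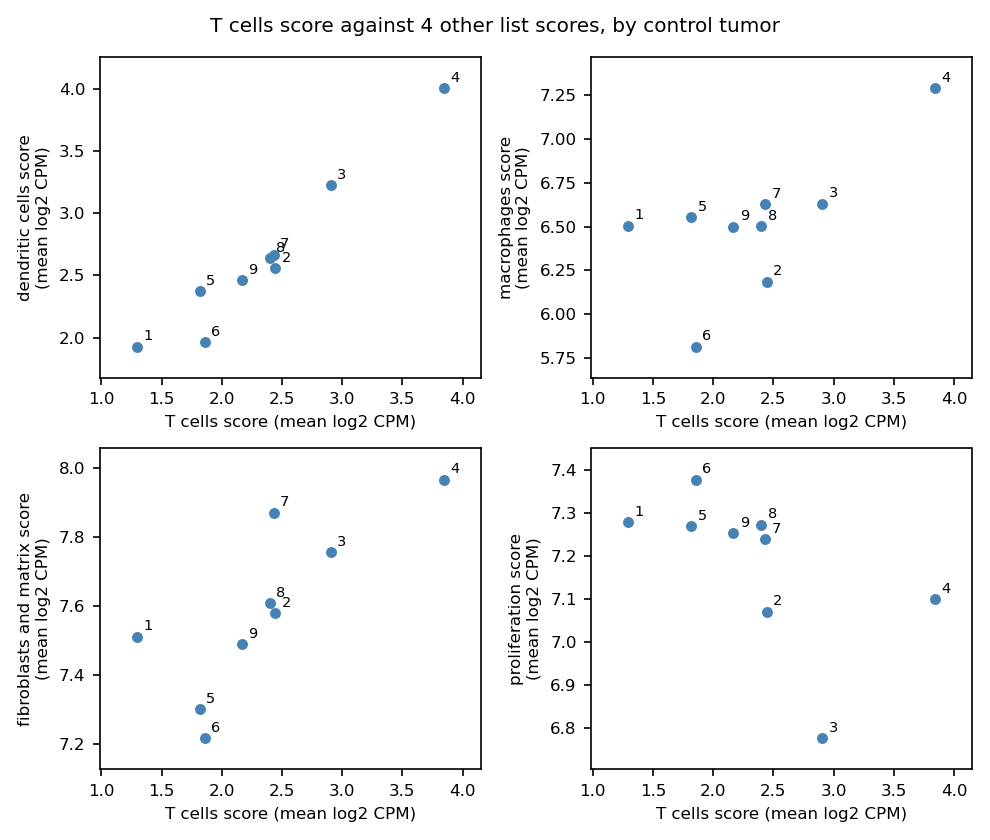
T cells score (mean log2 CPM, horizontal axis) against the scores of dendritic cells, macrophages, fibroblasts and proliferation (vertical axes), each point a control tumor with its number. Tumor 4 is at the upper right for the first 3 lists, and the dendritic cell points follow 1 line from tumor 1 to tumor 4, while tumors 6 and 2 fall below the others for macrophages and tumor 3 is lowest for proliferation.

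Gene by gene, edgeR's quasi-likelihood test of the slope on the T cells score called 1246 of 13125 genes (9.49%) with a positive and 584 (4.45%) with a negative slope, the list's own genes left out, and 31.6% of genes had an unadjusted p under 0.05. A slope of 1 means that a gene doubled when the T cell genes doubled. The smallest adjusted p belonged to Fgl2, a prothrombinase of T cells and macrophages (slope 1.38 ± 0.0699 SE, adjusted p = 7.89e-06), which had 4.11 FPKM in tumor 1, a median of 13.9 and 54.6 in tumor 4. Next were Ly6c2 (1.62 ± 0.102, adjusted p = 3.82e-05), Themis2 of macrophage and B cell signaling (1.10), the adhesion molecule Icam1 (1.22) and Gimap3 of lymphocyte survival (1.09), the last 3 with adjusted p = 4.10e-05. Among the other lists, 13 of 16 dendritic cell genes, 9 of 10 mast cell and eosinophil genes, 10 of 20 cytotoxic, 6 of 12 checkpoint, 7 of 20 macrophage, 6 of 34 interferon and 5 of 18 endothelial genes had a positive call. None of 26 proliferation genes did, and 1 had a negative call.

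The genes with the smallest p among the negative slopes were the aldehyde dehydrogenase Aldh3a1 (slope -0.92 ± 0.108, adjusted p = 0.000428), Apbb1 (-0.61 ± 0.0787, adjusted p = 0.00074) and the epithelial integrin Itgb4 (-0.56 ± 0.0735, adjusted p = 0.000842). Aldh3a1 had 59.7 FPKM in tumor 1, a median of 33.5 and 14.8 in tumor 4. Itgb4 had 50.2 FPKM in tumor 1, a median of 39.0 and 21.3 in tumor 4. The number of negative slopes depended on the tumors left in. Without tumor 4 the test called 1249 positive and 1942 negative slopes, and without tumor 1 it called 959 and 148. Negative calls numbered 312, 379, 385 and 373 without tumor 3, 7, 8 or 9, and without tumors 1 and 5 together there were 1209 positive and 458 negative. With the length slope of the tumors as a second term there were 1996 positive and 1666 negative.

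The macrophage score had 432 of 13122 genes (3.29%) with a positive and 60 (0.457%) with a negative slope, and 18.1% had an unadjusted p under 0.05. The positive slopes of smallest p were those of the myeloid transcription factor Spi1 (1.26 ± 0.120, adjusted p = 0.00332), Pi16, the protease Ctsh, the Fc receptor chain Fcer1g (1.19 ± 0.121) and the lymphotoxin Ltb (2.19 ± 0.224), all with adjusted p = 0.00332, and the negative ones those of Apc2, Tln2 and Cd109. Spi1 had 12.7 FPKM in tumor 6, a median of 21.3 and 45.6 in tumor 4. The fibroblast score had 388 of 13120 genes (2.96%) with a positive and 14 (0.107%) with a negative slope, and 18% had an unadjusted p under 0.05. Its leading genes were the selenium carrier Selenop (3.44 ± 0.366, adjusted p = 0.00798), Fndc1, Col6a5, Palld and the collagen cross-linker Lox (2.92 ± 0.340, adjusted p = 0.00842), and with negative slopes Rcor2, Mmab and Mrgprf. For both scores edgeR called 0 genes without tumor 4. With any other single tumor left out it called 166 (tumor 6) to 753 (tumor 1) genes for macrophages and 152 (tumor 3) to 555 (tumor 7) for fibroblasts. Without tumors 1 and 5 together it called 1395 positive and 1024 negative slopes for macrophages, and 651 and 142 for fibroblasts. With the length slope of the tumors as a second term it called 2013 positive and 1755 negative for macrophages, and 1337 and 728 for fibroblasts. The proliferation score had 0 of 13116 genes past the threshold in edgeR, with 936 (7.14%) at an unadjusted p under 0.05 and 28 in DESeq2. The scores and the genes come from the same libraries, so a gene's slope describes these tumors only.

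Grouping by correlation alone gave 8 modules that held 469 of the 500 most variable genes, with no test. The largest, of 325 genes led by Gimap8, Creb3l1, the complement component C3, Gimap3 and Ampd3, was lowest in tumor 1 and highest in tumor 4. C3 had 20.0 FPKM in tumor 1, a median of 74.4 and 309 in tumor 4. A module of 46 genes (Npl, Spint2, Ear2, Rarres2, Ccl8) was lowest in tumor 6 and highest in tumor 4. Its chemokine Ccl8 had 66.1 FPKM in tumor 6, a median of 354 and 2044 in tumor 4, and 637 in the next tumor, tumor 7.

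Another module held 36 genes led by Gm4951, Oas2, Cmpk2, Oas3 and Iigp1, 12 of them members of the interferon list. It was lowest in tumor 1 (-1.79 on the log2 scale from its mean) and highest in tumor 2 (1.20). Muscle genes (Ckm, Myh4, Tnnt3, Ttn, Atp2a1) formed a module of 14 that was 3.29 above its mean in tumor 6 and 2.62 in tumor 3. Adipocyte genes (Adipoq, Cd36, Slc36a2, H2-M2, Cidec) formed one of 10, highest in tumors 7 and 3, and epithelial genes (Krt18, Areg, Krt8, Krt7, Prlr) another of 10, highest in tumors 7, 9 and 5. A module of 10 genes (Srgap1, Plagl1, Gucy1a1, Wnt11, Aplnr) was lowest in tumor 9.

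A module of 18 genes (Lrch3, Zc3h11a, Fam120c, Mfsd4a, Gm38394) held no gene of any list. Its profile was lowest in tumors 5 and 1, and its correlation with the length slope of the tumors was 0.98, against 0.34 for the largest module and 0.61 for the interferon module. Within lists, the median correlation between 2 genes over the 9 tumors was 0.90 for skeletal muscle, 0.90 for interferon and 0.83 for T cells, against -0.0047 over all genes, 0.24 for fibroblasts and 0.02 for pericytes. These are descriptions over 9 points that share their libraries.

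**Figure D5:**
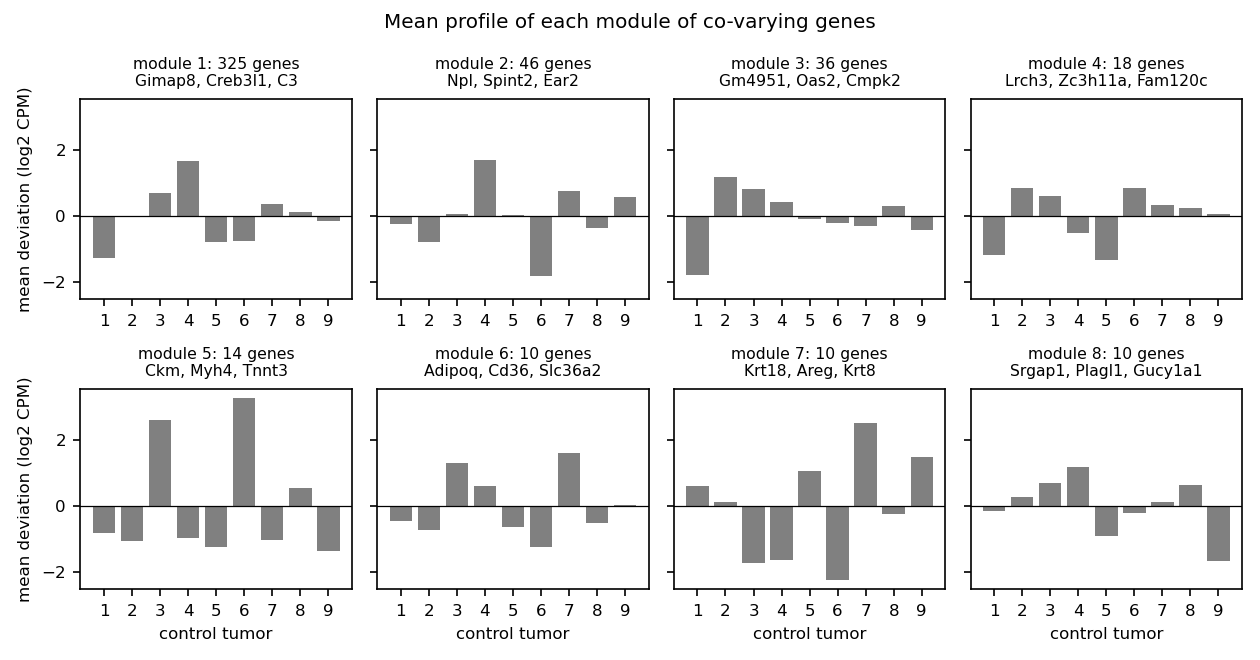
Mean deviation of the genes of each of the 8 modules from their mean over tumors (log2 CPM, vertical axis) in each control tumor (horizontal axis), with the number of genes and the 3 leading genes above each panel. The first 2 modules peak in tumor 4, the interferon module is lowest in tumor 1 and highest in tumor 2, the muscle module is high in tumors 3 and 6, and the epithelial module is high in tumor 7.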

How the data were processed

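RNA-seq of 9 control tumors was analysed. The authors deposited raw read counts per gene, which are not normalized, and FPKM, which equalled count per listed length and total count in all 138808 values checked (tolerance 1e-09). The methods give bead-captured, fragmented mRNA sequenced on a NovaSeq. The labels name another library kit. Aligner, counting program and strandedness are not given in the sources used here. The submitters' processing notes name GRCm38 and mm10, but only 512 of 21827 genes in common had the start and end of GENCODE M21, and the build of the table's positions stays unnamed. Of 22 repeated symbols, the row with most counts kept the name. The 0 columns without a label needed no handling.

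The gene lists (27) and tumors were chosen with earlier results of these data known. Named genes were the 20 of highest mean FPKM, the top 3, most variable and undetected members of each list, the 15 of largest BCV, the pairs compared, 5 positive and 3 negative slopes per score, and 5 genes per module. Genes named beyond this rule (Gapdh, Gzma, Gzme, Ifit1) were chosen after their values were seen. A gene of the intestinal list is not reported here. Counts were TMM-normalized in edgeR 4.0.16 (R 4.3.3), genes with a mean of at least 10 counts were tested, and slopes were fitted by quasi-likelihood with Benjamini-Hochberg adjustment. Scores used log2 CPM with a prior count of 2. Level pairs used log2(FPKM + 0.1), which understates folds of low genes, and adjustment over 20 pairs. Principal components used DESeq2 1.42.0. Modules were average-linkage clusters of 500 genes (tree height 0.4, at least 10 genes). Scripts were tested on simulated data. Alternatives were other normalizations, filters, pseudocounts, Spearman's rho, z scores, DESeq2, a length term and leaving out tumors. The cryoablation tumors were not analysed here. Library pairs differed by a chi-square of 8.45 to 118 per gene, so none was counted as a duplicate. Limits of 3 counts cover counting error only.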

Additional observations from a re-analysis of the deposited data

Results flagged for a closer look

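For 228 gene levels and list scores, the gap between the extreme tumor and its nearest neighbour was set against the whole range of the 9 tumors on the TMM-normalized log2 CPM scale. In 26 (11.4%) it exceeded 0.493 of that range, Dixon's critical value for 9 values. Chance passes it in about 1 of 20 groups, but many of these genes were named for a large spread or a steep slope and share the same tumors, so the share cannot be read against that rate. All 26 were single genes, and tumor 4 was the extreme tumor in 15 of them, highest in 10 and lowest in 5.

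Tumor 4 was highest for the lymphocyte genes Cd2 (4.68, median 2.81), Cd3d (4.20, median 2.54), Lck (5.17, median 3.59), Ltb (5.21, median 3.06), Tnfrsf4 (3.79, median 2.43) and Cd79a (1.62, median -0.85). It was also highest for macrophage Adgre1 (7.95, median 5.95), mast cell Mcpt4 (3.64, median 0.93), Colq (3.53, median -1.30) and Actb (12.01, median 11.45). It was lowest for the granzymes Gzmc (5.81, median 6.97) and Gzmf (4.71, median 5.99), for the pericyte genes Pdgfrb (6.71, median 7.27) and Cspg4 (6.85, median 7.46) and for Pmp22 (7.24, median 7.77).

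Tumor 1 was lowest for Cd274 (3.31, median 5.50) and for the interferon targets Cxcl10 (5.99, median 7.34), Gm4951 (3.34, median 5.35) and Iigp1 (6.61, median 8.82), and highest for Hsp90ab1 (12.36, median 12.11). Tumor 5 was highest for the glycolytic enzymes Ldha (11.39, median 10.83) and Pgk1 (10.87, median 10.32). Tumor 6 was highest for Cdh2 (4.59, median 4.21) and lowest for Acta2 (4.70, median 5.67), tumor 9 was lowest for Aplnr (0.43, median 2.39), and tumor 2 was lowest for mt-Cytb (10.37, median 10.66). The ribosomal share and length slope of tumors 1 and 5 stand beside these values in the report, and their part in them was not tested.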

How the results depend on the processing

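No paired analysis was possible because a single group was analysed, and the level pairs compare genes within a tumor. Calls between list scores numbered 27, 9 with Spearman's rho, 16 without tumors 1 and 5 (an alternative added after the data were seen), and 3 (without tumor 4) to 31 (without tumor 1) with 1 tumor left out. The call between a list and tissue or technical measures (1) went to 0 with Spearman's rho, with z scores, without tumors 1 and 5, and without any single tumor (0 to 0). The sign of Krt8 minus Krt18, not called, turned with a pseudocount of 1 (0.0075) and without tumor 4 (0.0502), and was as low as -0.147 with another tumor left out. Modules numbered 8, 13 with 1000 genes and 4 (without tumor 2) or more with 1 tumor left out. The top 20 genes held 8.08% when ranked by counts. Requiring a BCV of 0.2 as well left 6068 variable genes. The T cell score called 1830 genes in all, 3662 with the length slope as a second term, and 1107 (without tumor 1) to 3191 (without tumor 4). The macrophage score called 492, then 3768 with the length term, 1208 in DESeq2, 2419 without tumors 1 and 5, and 0 (without tumor 4) to 753 (without tumor 1). The fibroblast score called 402, then 2065, 1037 and 793 under the same 3 settings, and 0 (without tumor 4) to 555 without 1 tumor. Proliferation called 28 in DESeq2. The leading component held 47.9% on TMM log2 CPM, 49.6% over all genes, and 53.7% to 61.5% without 1 tumor. The causes were not tested. Of the other values for single genes and pairs, 462 kept direction and call and 168 kept direction but lost the call. Level pairs called numbered 17 to 19 of 20 with 1 tumor left out. Genes at or under 3 counts cannot be ordered at this depth.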
